A study of Homo sapiens with 12 samples.

Results

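Mitotic genes are described here as 46 genes whose products act in G2, at the kinetochore, on the spindle or in cytokinesis. The set is a list of names whose rule uses no measured value, although it was drawn up with earlier results of these data known. Each name was matched by its Ensembl identifier to the deposited count tables, which hold 58051 genes. All 46 were found and all 46 passed the filter on low counts in the gene-body, exon and intron counts. They were followed in 12 RNA-seq libraries of HCT116, a human colon carcinoma cell line, in 6 groups of 2. Cells received siControl (a control siRNA), siPFDN2 or siPFDN5 (siRNAs against subunits of the chaperone prefoldin) for 24 h and were then starved of serum for 48 h. They were collected either then, called before serum, or 90 min after serum was given back, called after serum. All 6 groups thus shared transfection and starvation, and no group of growing cells was analysed here. The labels do not say whether the 2 replicates of a group were separate cultures, so p-values measure only the spread between these samples.

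Mitosis is driven by CDK1 bound to cyclins A and B. Aurora and Polo-like kinases, the chromosomal passenger complex and a set of kinesins build the spindle, the kinetochore holds chromosomes to it, and the spindle checkpoint keeps the anaphase promoting complex (APC/C) off until every kinetochore is attached. Transcripts of these genes peak late in the cell cycle and are kept low in quiescent cells by the DREAM complex, which binds the cell cycle genes homology region (CHR) of their promoters, while NF-Y binds their CCAAT boxes. Serum starvation is a common way to hold cells back before S phase, and mitotic transcripts usually come up many hours after serum returns, long after the immediate early genes.

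The tables held 59784425 to 136504590 gene-body counts per library. One library, siPFDN2 replicate 2 before serum, stood apart. Its log2 deviations from the other libraries followed GC content over all genes (Spearman rho 0.688, against -0.280 to 0.133 in the 11 others), and the 2 replicates of that group differed by a median of 0.64 log2 units over the 46 mitotic genes, against 0.045 to 0.22 in the other groups. It also enters the error of every comparison, so the calls of each comparison are also given without it. PFDN2 stood at 7.55 and 8.49 CPM (counts relative to the TMM-scaled library total) in siPFDN2 and 11.5 and 11.2 in siControl before serum, and at 8.73 and 9.47 against 19.5 and 16.3 after it. In siPFDN5 it stood above siControl at both times, at 21.8 and 21.1 CPM before serum and 23.1 and 28.7 after it. PFDN5 stood at 41.0 and 44.2 CPM in siPFDN5 against 76.8 and 68.9 in siControl before serum. After serum it stood at 67.5 and 68.6 against 67.9 and 74.0. In exon CPM it stood at 52.2 and 55.5 against 94.1 and 84.3 before serum, and at 78.0 and 79.6 against 87.3 and 90.1 after it. Any lowering after serum was thus small, and that pair is called the libraries labelled siPFDN5. The 5 epithelial markers checked summed to 1818 to 2939 CPM, the 5 fibroblast markers to 4.38 to 17.9, and all 4 blood markers lay under 1 in every library.

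Promoter sequence was given by RefSeq (GRCh38.p14) for 39 of the 46 genes, all but AURKA, BIRC5, BUB3, FOXM1, TPX2, TTK and UBE2C. The 250 bases before each transcription start were searched on both strands for the CHR (TTTGAA or TTCGAA) and for the CCAAT box (CCAAT). A CHR stood in 22 of the 39 genes and a CCAAT box in 33, and 20 had both. Counted by start site, the CHR was in 24 of 49 windows (49.0%) against 14.3% of all 35116 windows of that length, and both motifs were in 42.9% against 5.05%. At least 2 CCAAT boxes were in 49.0% of the windows against 9.53%. The stretches that hold both motifs are shown for 5 genes, as examples of this arrangement in which no annotated exon lies, each read 5′ to 3′ towards the gene, with the motifs and their reverse complements in capitals.
CDC20 (chr1:43358811-43358940, plus strand): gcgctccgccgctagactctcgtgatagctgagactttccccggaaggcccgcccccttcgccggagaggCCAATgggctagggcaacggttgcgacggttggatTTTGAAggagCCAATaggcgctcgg
CDK1 (chr10:60778165-60778195, plus strand): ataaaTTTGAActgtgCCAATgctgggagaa
KIF11 (chr10:92593072-92593117, plus strand): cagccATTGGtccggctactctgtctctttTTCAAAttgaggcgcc
KIF4A (chrX:70290041-70290085, plus strand): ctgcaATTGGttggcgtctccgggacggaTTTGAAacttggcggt
MKI67 (chr10:128126433-128126526, minus strand): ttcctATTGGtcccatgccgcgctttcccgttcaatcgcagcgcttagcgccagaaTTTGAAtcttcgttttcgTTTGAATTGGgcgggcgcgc
In MKI67 the second CHR runs into a reverse CCAAT box and shares 1 base with it. CDC20 has a further reverse CHR 178 bases before the start, outside the stretch shown. CDK1 has 2 annotated starts, and the stretch belongs to the first of them. A match is a description of letters and not a measured binding site.

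**Figure D1:**
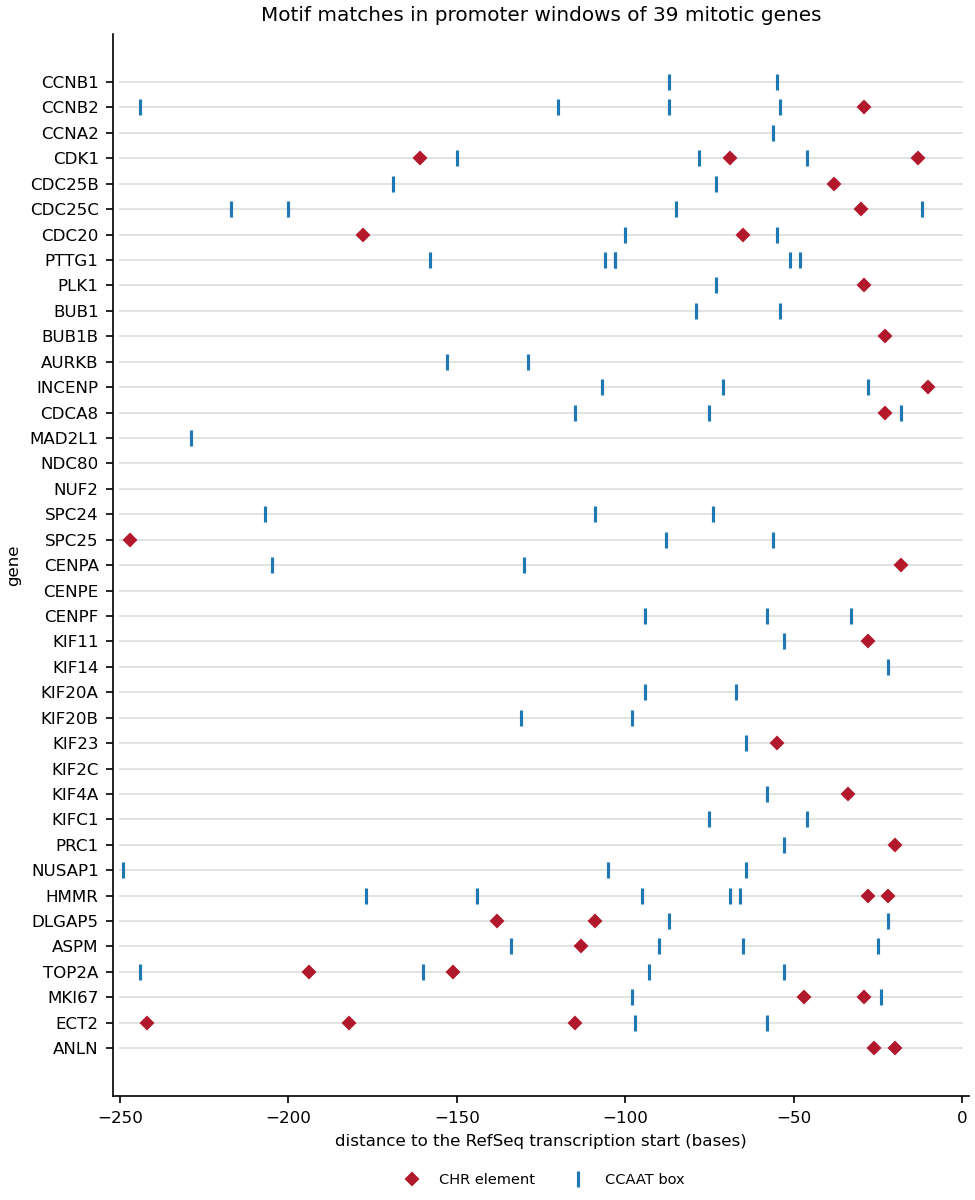
Positions of CHR matches (diamonds) and CCAAT matches (ticks), in bases before the RefSeq transcription start, for the 39 mitotic genes with a promoter sequence. Genes with more than 1 start have all their windows on 1 line. A CHR was present in 22 of the 39 genes.

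Levels of different genes were compared as exon CPM per kilobase of exon. In siControl before serum these ran from 4.61 ± 0.604 for CENPE, the kinesin of the kinetochore, to 60.0 ± 2.33 for CCNB1, cyclin B1 (mean ± SD, n = 2). CDC20, the activator of the APC/C in mitosis, came next at 59.9 ± 4.57, followed by TPX2, a spindle factor that activates Aurora A, at 48.7 ± 0.518. CCNB1 and CDC20 did not differ beyond their spread. The level of CENPE was above that of 65.0% of all genes tested and the level of CCNB1 above that of 97.5%.

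**Figure D2:**
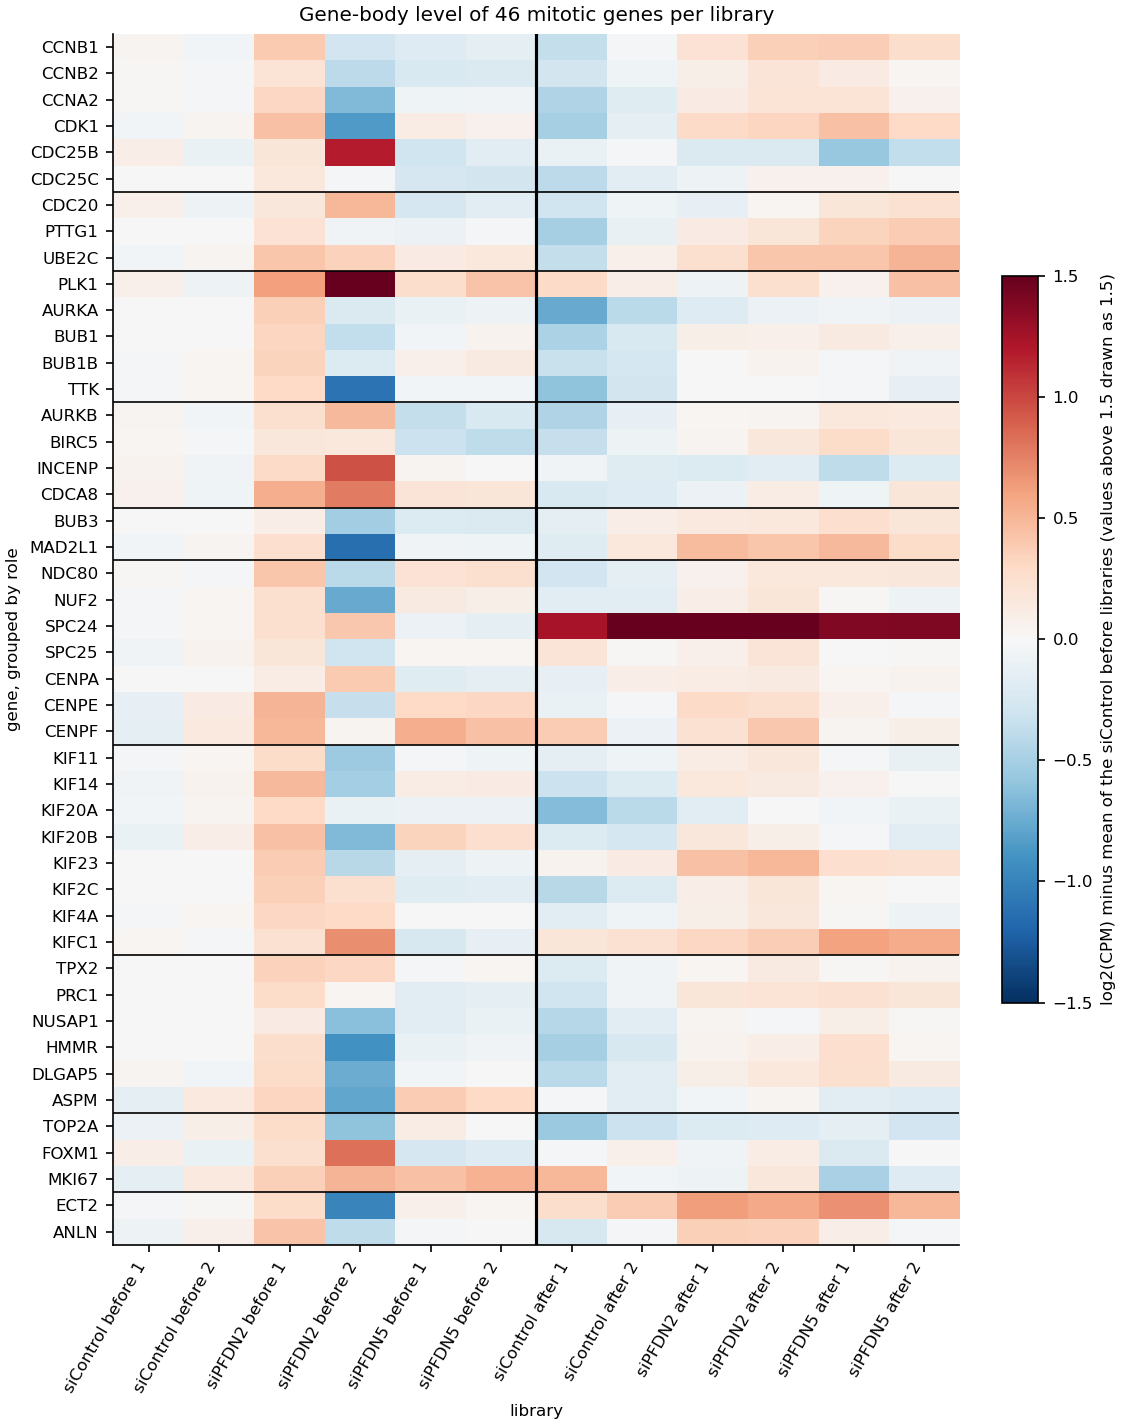
Gene-body level of each mitotic gene in each library, as log2 CPM minus the mean of the 2 siControl libraries before serum, with genes in rows grouped by role and libraries in columns. The column of siPFDN2 replicate 2 before serum differs from its replicate in both directions, and most rows of the siControl libraries after serum are below 0.

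Values in each library are given by role, starting with the genes of mitotic entry. CCNB1 stood at 132 and 125 CPM in siControl, 169 and 105 in siPFDN2 and 112 and 116 in siPFDN5 before serum, and 100.5 and 126, 149 and 165, and 166 and 154 after serum. The siControl and siPFDN5 libraries before serum lay between the siPFDN2 pair, and after serum both siPFDN2 libraries and both libraries labelled siPFDN5 lay above both of siControl. CDK1, its catalytic partner, stood at 94.1 and 99.5 CPM in siControl, 132 and 53.7 in siPFDN2 and 105 and 101 in siPFDN5 before serum, and 68.6 and 88.4, 118 and 121, and 131 and 119 after serum. It showed the same order, with siPFDN2 replicate 2 before serum the lowest of all 12. PLK1, the kinase of centrosome maturation and spindle assembly, stood at 32.4 and 28.9 CPM in siControl, 47.0 and 94.4 in siPFDN2 and 36.6 and 41.3 in siPFDN5 before serum, and 37.2 and 32.8, 29.1 and 36.1, and 32.1 and 41.5 after serum. The group of siPFDN2 before serum was the highest, with its replicates far apart, and the groups after serum overlapped. AURKA, the kinase of spindle poles, stood at 46.7 and 46.1 CPM in siControl, 59.4 and 40.0 in siPFDN2 and 43.4 and 44.049 in siPFDN5 before serum, and 27.5 and 35.2, 40.7 and 43.8, and 44.7 and 43.7 after serum. All libraries of siControl after serum were below every other library. BUB1, a checkpoint kinase, stood at 92.6 and 93.7 CPM in siControl, 117 and 72.2 in siPFDN2 and 90.4 and 96.3 in siPFDN5 before serum, and 66.9 and 79.5, 98.9 and 98.5, and 102 and 98.2 after serum. Its siControl libraries after serum were likewise below those of the other groups, apart from siPFDN2 replicate 2 before serum.

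Regulators of mitotic exit, the spindle and cytokinesis follow. CDC20 stood at 105 and 94.4 CPM in siControl, 112 and 141 in siPFDN2 and 83.8 and 88.6 in siPFDN5 before serum, and 81.1 and 95.3, 91.7 and 102, and 113 and 116 after serum. Its siControl and siPFDN2 libraries after serum overlapped, while the libraries labelled siPFDN5 were above both. BIRC5, the survivin subunit of the chromosomal passenger complex, stood at 109 and 105 CPM in siControl, 120.2 and 119 in siPFDN2 and 85.6 and 82.3 in siPFDN5 before serum, and 84.4 and 101, 110.4 and 120.2, and 130.02 and 121 after serum. Before serum it was lowest in siPFDN5, and after serum it was lowest in siControl. KIF20A, a kinesin of the central spindle, stood at 68.3 and 71.8 CPM in siControl, 86.3 and 65.4 in siPFDN2 and 65.7 and 65.7 in siPFDN5 before serum, and 44.6 and 52.8, 63.0 and 70.3, and 68.0 and 65.2 after serum. Its siControl libraries after serum were the lowest of the 12. TPX2 stood at 149 and 152 CPM in siControl, 191 and 186 in siPFDN2 and 149 and 153 in siPFDN5 before serum, and 131 and 145, 153 and 165, and 152 and 156 after serum. Here siPFDN2 before serum was highest and siControl replicate 1 after serum lowest. ECT2, the exchange factor that starts cytokinesis, stood at 116 and 119 CPM in siControl, 143 and 59.5 in siPFDN2 and 124 and 119.8 in siPFDN5 before serum, and 141 and 153, 181 and 175, and 189 and 167 after serum. Every library after serum but siControl replicate 1 was above every library before serum.

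CENPE stood at 36.3 and 43.2 CPM in siControl, 56.4 and 31.1 in siPFDN2 and 48.5 and 49.0 in siPFDN5 before serum, and 36.9 and 38.8, 48.4 and 46.6, and 41.7 and 38.97 after serum. Before serum both siPFDN5 libraries were above both of siControl, and after serum the groups ran without overlap from siControl over siPFDN5 to siPFDN2. TOP2A, the topoisomerase that untangles sister chromatids, stood at 139.8 and 158 CPM in siControl, 179.7 and 97.8 in siPFDN2 and 160.2 and 148 in siPFDN5 before serum, and 101 and 119, 129 and 129.9, and 135 and 122 after serum. Both siControl libraries after serum were below both before it. MKI67, the Ki-67 antigen that coats mitotic chromosomes, stood at 217 and 265 CPM in siControl, 307 and 341 in siPFDN2 and 326 and 343 in siPFDN5 before serum, and 339.9 and 233, 228 and 269, and 172 and 209 after serum. Its siControl replicates differed widely after serum, and the lowest library of all was labelled siPFDN5 after serum. FOXM1, a transcription factor of late cell cycle genes, stood at 54.8 and 47.5 CPM in siControl, 60.4 and 90.2 in siPFDN2 and 42.7 and 44.6 in siPFDN5 before serum, and 50.3 and 53.7, 49.0 and 55.2, and 43.9 and 50.7 after serum. Apart from a high siPFDN2 replicate 2 before serum, its libraries lay close together.

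Whether a prefoldin knockdown changes these genes in starved cells was asked first. None of the 46 genes passed an adjusted p under 0.05 in siPFDN2 or in siPFDN5 against siControl before serum (edgeR quasi-likelihood test, p-values adjusted by Benjamini-Hochberg over all 27915 genes), where 0% and 0.00716% of all genes passed. At an unadjusted p under 0.05 they numbered 12 and 3, where 11.3% and 12.3% of all genes did. DESeq2 called 2 and 0, and 0.163% and 1.36% of all genes with an adjusted p. The median log2 fold change of the mitotic genes was 0.088 in siPFDN2 and -0.040 in siPFDN5, beside -0.0057 and 0.014 over all genes. The smallest p-values belonged to PLK1 (1.21 ± 0.28 SE, adjusted p = 0.44), CDCA8, the borealin subunit of the passenger complex (0.66 ± 0.15 SE, adjusted p = 0.44), and INCENP, its scaffold (0.66 ± 0.19 SE, adjusted p = 0.44), in siPFDN2, and to BIRC5 (-0.35 ± 0.14 SE, adjusted p = 0.34), CENPF (0.49 ± 0.20 SE, adjusted p = 0.36) and MKI67 (0.47 ± 0.20 SE, adjusted p = 0.37) in siPFDN5. Here ± gives the standard error of a log2 fold change, as in all comparisons that follow. In siPFDN2 the result turned on a single library. With replicate 2 left out all 46 differences were positive (median 0.29, 0 calls, 0.0241% of all genes called), and with replicate 1 left out 34 genes were called, 12 higher and 22 lower, where 20.2% and 21.5% of all genes were, at a median of -0.26. Over the 46 genes, the log2 difference of replicate 2 from replicate 1 followed the GC content of the gene (Spearman rho 0.921, across genes, which are not independent). All 23 genes under the members' median GC were lower in replicate 2, and 11 of the 23 others were higher. In siPFDN5 before serum, leaving out that library gave 1 call, BIRC5 lower (-0.36 ± 0.093), beside 3.89% of all genes called lower.

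Set directly against each other before serum, siPFDN5 and siPFDN2 gave no call either, where 0.0788% of all genes were called, and 26 of 46 genes were lower in siPFDN5. An unadjusted p under 0.05 was found for 16 (8092 of all 27915 genes), and DESeq2 called 12 (all genes 16.3%). Removal of a GC trend also gave calls here, counted in the closing section. AURKB, the kinase of the passenger complex (-0.67 ± 0.15 SE, adjusted p = 0.059), FOXM1 (-0.79 ± 0.19 SE, adjusted p = 0.059) and KIFC1, a minus-end-directed kinesin (-0.66 ± 0.16 SE, adjusted p = 0.059), came closest. Without siPFDN2 replicate 2, 11 genes were lower in siPFDN5 and none higher, beside 1.87% of all genes called lower. Among them were CCNB1 (-0.57 ± 0.12), KIF2C, a microtubule depolymerase (-0.54 ± 0.098), and BIRC5 (-0.52 ± 0.11).

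After serum, most mitotic genes stood higher with either siRNA than with siControl. No single gene passed the edgeR test with all 12 libraries and no GC trend removed. With a GC trend removed, the libraries labelled siPFDN5 did give calls, which the closing section counts without the share of all genes. In siPFDN2 42 of 46 log2 fold changes were positive (median 0.31, beside -0.051 over all genes), and in the libraries labelled siPFDN5 38 were (median 0.27, beside -0.043). Both siPFDN2 libraries lay above both siControl libraries for 37 genes, beside 22.5% of all genes, and both libraries labelled siPFDN5 did for 33, beside 30.6%. The 2 comparisons share the siControl libraries, whose replicates differed by a median of 0.22 log2 units over these genes. No mitotic gene was called by edgeR in either comparison, where 0% and 0.00358% of all genes were, with 8 and 13 mitotic genes at an unadjusted p under 0.05 (all genes 6.26% and 21.6%). DESeq2 called 0 and 3 (all genes 0.00716% and 7.75%). In bulk RNA, a change in the number of cells near mitosis and a change in RNA per cell cannot be told apart.

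The genes with the smallest p-values after serum were KIF2C (0.45 ± 0.13 SE, adjusted p = 0.77), UBE2C, the ubiquitin-conjugating enzyme of the APC/C (0.46 ± 0.16 SE, adjusted p = 0.77), and KIF20A (0.45 ± 0.16 SE, adjusted p = 0.77) in siPFDN2. In the libraries labelled siPFDN5 they were PTTG1, the separase inhibitor securin (0.65 ± 0.16 SE, adjusted p = 0.079), UBE2C (0.59 ± 0.16 SE, adjusted p = 0.09) and BIRC5 (0.44 ± 0.14 SE, adjusted p = 0.11). All 3 APC/C partners, all 8 kinesins and the checkpoint genes BUB3 and MAD2L1 were positive in both comparisons. CDC25B, a phosphatase that activates CDK1, INCENP and MKI67 were negative in both, MKI67 by -0.21 ± 0.20 and -0.59 ± 0.20. Neither comparison holds siPFDN2 replicate 2 before serum, which enters through the shared error. Without it 8 genes rose and 0 fell in siPFDN2 (background 0.210% higher), namely CDK1, ANLN, CCNA2, KIF20A, KIF2C, BUB1, KIF14 and KIF23. In the libraries labelled siPFDN5 25 rose, led by CDK1 (0.68 ± 0.10), PTTG1 (0.65 ± 0.10) and UBE2C (0.59 ± 0.12), and CDC25B fell (-0.40 ± 0.094), beside 13.8% of all genes called higher and 10.1% lower. Leaving out the other library of that group, which also takes its spread out of the shared error, gave 8 and 26 calls, 8 and 25 of them higher, where 0.208% and 13.6% of all genes were.

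**Figure D3:**
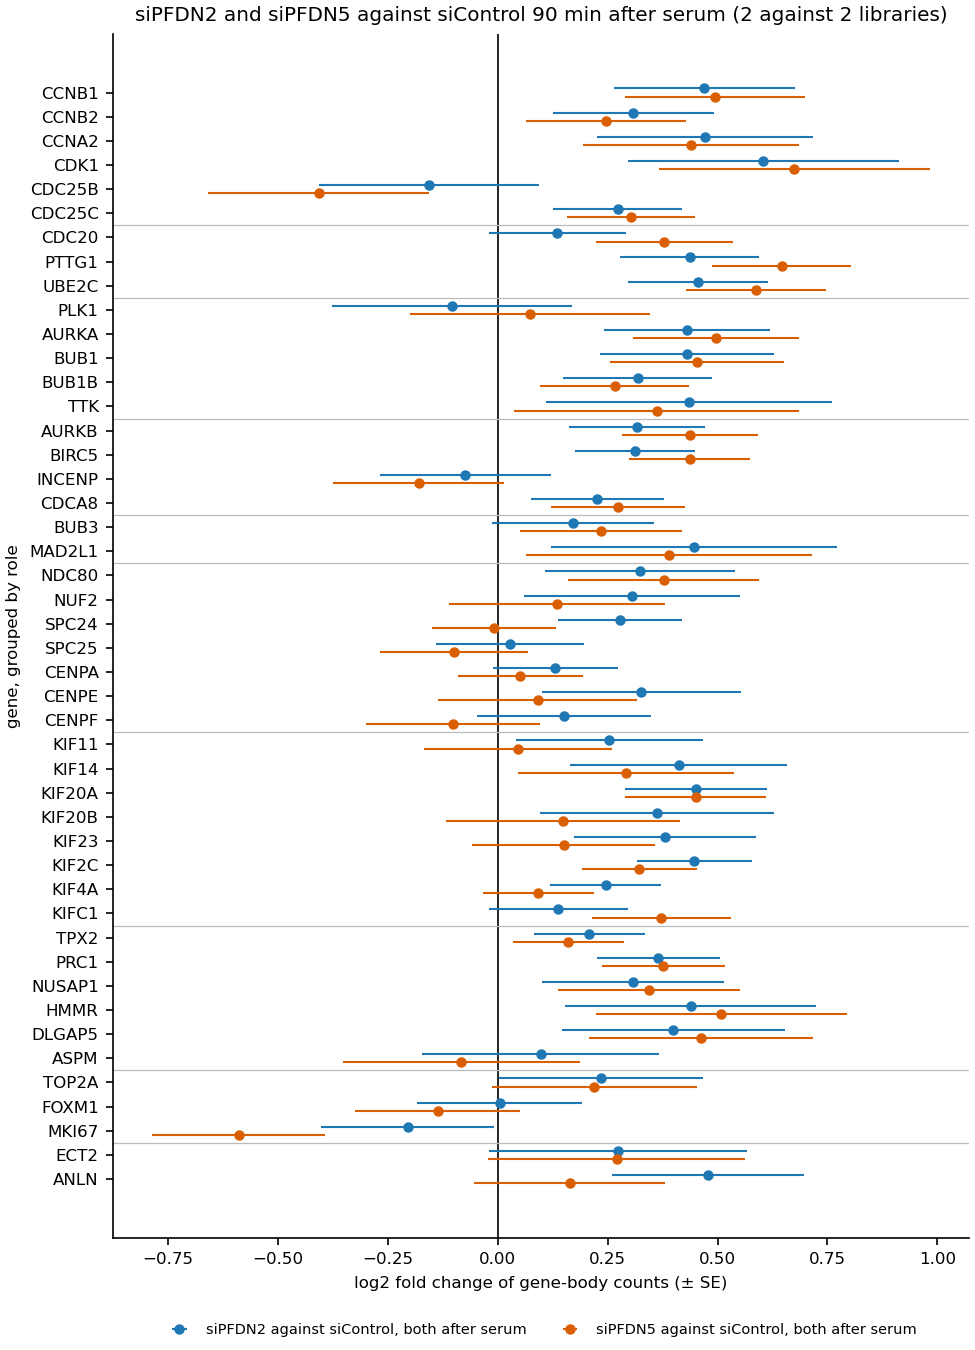
Log2 fold change of gene-body counts (± SE) after serum for siPFDN2 (blue) and for the libraries labelled siPFDN5 (orange) against siControl, 2 against 2 libraries, with genes grouped by role. Points lie right of 0 for 42 and 38 of the 46 genes. No gene passed an adjusted p under 0.05 in the edgeR test plotted here, in which no GC trend was removed.

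Between the libraries labelled siPFDN5 and siPFDN2 after serum the median difference was -0.039, with 19 genes positive and 27 negative. No gene was called by edgeR or DESeq2, where 0.0179% and 0.451% of all genes were, and 0 had an unadjusted p under 0.05 (all genes 7.92%). Without siPFDN2 replicate 2 before serum there was no call either (all genes 4.22%). SPC24 (-0.29 ± 0.14 SE, adjusted p = 0.66), a subunit of the NDC80 complex, MKI67 (-0.38 ± 0.20 SE, adjusted p = 0.67) and CDC20 (0.24 ± 0.16 SE, adjusted p = 0.75) had the smallest p-values.

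How serum itself moved the genes was asked in each siRNA and on average. In siPFDN5 this sets libraries with lowered PFDN5 before serum against libraries in which PFDN5 was near its siControl level. The averaged response includes this comparison. In gene-body counts, which are mostly exon fragments, few changed within 90 min. In siControl 1 gene rose and 0 fell (background 2.47% and 0.394%), in siPFDN2 1 rose and 2 fell (2.06% and 1.20%), and in siPFDN5 3 rose and 1 fell (5.72% and 6.48%). Averaged over the 3 siRNAs, 2 rose and 2 fell (7.60% and 7.31%), with a median log2 fold change of -0.035 beside -0.025 over all genes. The median in siControl was -0.17, with 37 of 46 negative, and 27 genes had both libraries before serum above both after it, beside 22.4% of all genes. The medians in siPFDN2 (0.056) and siPFDN5 (0.11) were positive with TMM scaling and negative (-0.14 and -0.039) with library size alone, which shifted the median of all genes by -0.20 and -0.15.

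SPC24 rose in each siRNA and on average (1.42 ± 0.083 SE, adjusted p = 8.2e-07). It is among the 26 members whose bodies overlap another annotated gene, where fragments are counted for each. In exon counts SPC24 rose by 0.52 ± 0.083 and in transcript estimates its averaged change was -0.090, so its gain in gene-body counts is uncertain. ECT2 (ENSG00000114346, chr3:172750682-172821474, plus strand) also rose on average (0.56 ± 0.17 SE, adjusted p = 0.048). INCENP (-0.42 ± 0.11 SE, adjusted p = 0.03) and CDCA8 (-0.33 ± 0.088 SE, adjusted p = 0.03), subunits of the same complex, fell on average and in siPFDN2, where the higher of their libraries before serum was the one that stands apart (INCENP 71.4 CPM against 44.8 in its replicate). In siPFDN5, KIFC1 (0.76 ± 0.16 SE, adjusted p = 0.018) and BIRC5 (0.58 ± 0.14 SE, adjusted p = 0.025) rose and MKI67 fell (-0.81 ± 0.20 SE, adjusted p = 0.027). Without the library that stands apart, 10 genes fell in siControl, led by AURKA (-0.57 ± 0.10) and KIF20A (-0.53 ± 0.091), and 2 rose, beside 3.75% and 6.20% of all genes. In siPFDN2 4 fell and 1 rose (1.48% and 2.51%), in siPFDN5 6 fell and 16 rose (16.3% and 20.1%), and on average 14 fell and 5 rose (12.5% and 14.9%). Of the 4 averaged calls with all libraries, 1 was left when any of 9 other libraries was left out.

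Intron counts of most of these genes fell. They were taken as the gene-body count minus the exon count, that is, fragments inside the gene but outside its exons, which in randomly primed total RNA come mostly from transcripts not yet spliced. Averaged over the siRNAs, 34 of 46 mitotic genes fell and 2 rose, where 15.1% of all 19731 genes tested on introns fell and 14.2% rose. The median log2 fold change was -0.78, beside -0.013 over all genes, and in exon counts it was 0.0055, with 1 gene higher (SPC24) and 1 lower (CDCA8) against 5.85% and 5.11% of all genes. The fall was found with each siRNA, 29 genes in siControl (median -1.001, 2.38% of all genes lower), 24 in siPFDN2 (-0.84, 6.38%) and 20 in siPFDN5 (-0.62, 14.5%). Without siPFDN2 replicate 2 before serum, 37 fell on average (median -0.84, 14.1% of all genes), 35 in siControl (4.41%), 24 in siPFDN2 (1.30%) and 23 in siPFDN5 (18.0%). In exon counts without it, 13 genes fell on average and 6 rose, beside 13.1% and 15.3% of all genes, with changes between -0.40 and 0.59. Leaving out each of the 12 libraries in turn gave 34 to 40 averaged calls in either direction. Within 1 siRNA the calls depended on single libraries. They went from 30 in siControl to 15 without its replicate 1 before serum and 13 without its replicate 1 after serum, from 25 in siPFDN2 to 12 and 9 without its replicates 1 and 2 after serum, and from 22 in siPFDN5 to 5 to 13 without any 1 of its 4 libraries. Among the 20 members whose bodies overlap no other annotated gene, 17 fell, none rose and the median was -0.96.

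**Figure D4:**
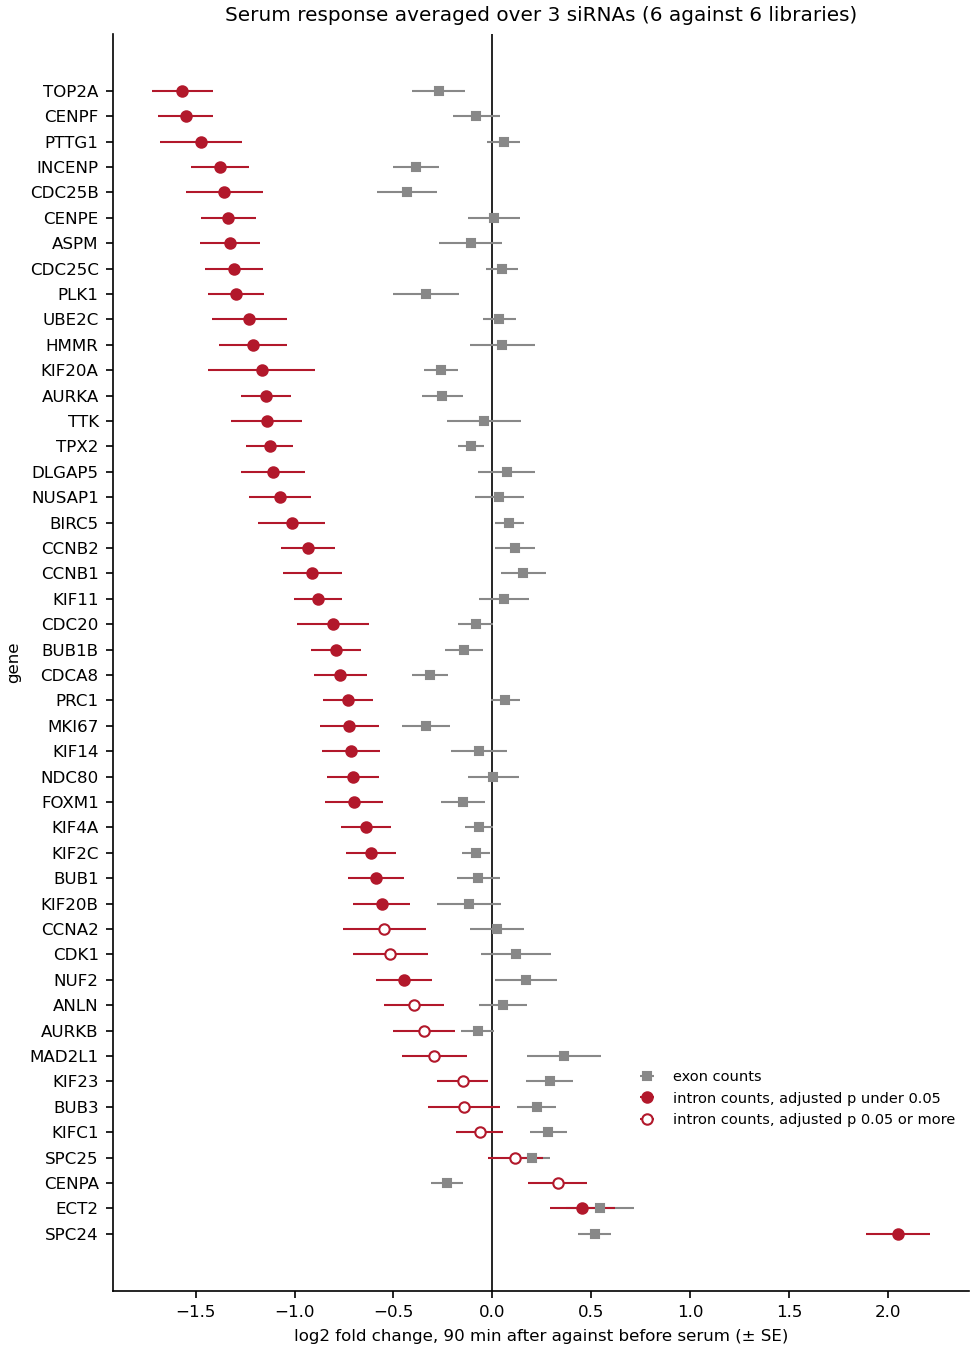
Log2 fold change (± SE) from before to after serum, averaged over the 3 siRNAs (6 against 6 libraries), in intron counts (circles, filled where the adjusted p was under 0.05) and exon counts (squares) of each mitotic gene, in the order of the intron change. The intron values reach -1.57 in TOP2A while exon values stay between -0.43 and 0.54.

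The largest falls were those of TOP2A, CENPF, a kinetochore protein of the outer layer, PTTG1, INCENP and CDC25B. TOP2A (ENSG00000131747, chr17:40388516-40417950, minus strand) had 387 and 420 intron fragments in siControl, 491 and 573 in siPFDN2 and 316 and 270 in siPFDN5 before serum, and 81 and 179, 87 and 114, and 105 and 101 after serum. In every siRNA both counts after serum were below both before it. Its averaged change was -1.57 ± 0.15 SE, adjusted p = 1.1e-06, against -0.27 ± 0.13 in exon counts. CENPF (ENSG00000117724, chr1:214603195-214664588, plus strand) had 566 and 586 intron fragments in siControl, 705 and 619 in siPFDN2 and 436 and 414 in siPFDN5 before serum, and 179 and 267, 135 and 177, and 103 and 106 after serum. All libraries after serum were below all before serum, and the change was -1.55 ± 0.14 SE, adjusted p = 4.0e-07, against -0.081 ± 0.12 in exons. PTTG1 (ENSG00000164611, chr5:160421822-160428744, plus strand) had 133 and 131 intron fragments in siControl, 158 and 101 in siPFDN2 and 81 and 87 in siPFDN5 before serum, and 30 and 47, 31 and 34, and 36 and 24 after serum. Here too the 2 times did not overlap, with a change of -1.47 ± 0.21 SE, adjusted p = 5.8e-05, against 0.056 ± 0.082 in exons. INCENP (-1.38 ± 0.15 SE, adjusted p = 2.9e-06) and CDC25B (-1.35 ± 0.19 SE, adjusted p = 6.3e-05) had lower exon estimates as well (-0.39 ± 0.12 and -0.43 ± 0.15, neither called). These counts are not scaled for library depth, while the changes are.

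By role, the genes listed with the mitotic kinases fell in intron counts in 5 of 5 (PLK1 -1.30 ± 0.14, AURKA -1.14 ± 0.13, TTK -1.14 ± 0.18, BUB1B -0.79 ± 0.13, BUB1 -0.59 ± 0.14). So did 3 of 3 APC/C partners, with UBE2C at -1.23 ± 0.19 and CDC20 at -0.81 ± 0.18. All 6 spindle assembly genes fell, from ASPM, which organises spindle poles, at -1.33 ± 0.15 to PRC1, the bundler of midzone microtubules, at -0.73 ± 0.13. Of the cyclin, CDK1 and CDC25 genes 4 of 6 fell, with CDC25C at -1.31 ± 0.15, CCNB2 at -0.93 ± 0.14 and CCNB1 at -0.91 ± 0.15, while CDK1 (-0.52 ± 0.19 SE, adjusted p = 0.0501) and CCNA2 (-0.55 ± 0.21 SE, adjusted p = 0.059) did not pass. The passenger complex fell in 3 of 4, all but AURKB (-0.35 ± 0.16 SE, adjusted p = 0.11). Kinesins fell in 6 of 8, from KIF20A at -1.17 ± 0.27 to KIF20B at -0.56 ± 0.14. The exceptions were KIF23 (-0.15 ± 0.13 SE, adjusted p = 0.4) and KIFC1 (-0.065 ± 0.12 SE, adjusted p = 0.72). KIF20A had only 11 to 93 intron fragments per library, and its body overlaps BRD8 and CDC23. TOP2A, MKI67 (-0.72 ± 0.15) and FOXM1 (-0.70 ± 0.15) all fell.

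Kinetochore and centromere genes divided. CENPF, CENPE (-1.33 ± 0.14), NDC80 (-0.70 ± 0.13) and NUF2 (-0.45 ± 0.14) fell, SPC25 (0.12 ± 0.14) and CENPA (0.33 ± 0.15), the centromeric histone, did not pass, and SPC24 rose (2.05 ± 0.16 SE, adjusted p = 8.7e-08). The 3 that did not fall overlap other genes, CENPA with SLC35F6 and SPC25 with NOSTRIN and G6PC2 among them, as does NUF2 with RGS5. Introns made up 79.9 ± 0.551% of the CENPA count and 61.0 ± 1.80% of the SPC24 count in siControl before serum (mean ± SD, n = 2), against 3.78 ± 0.809% of that of CENPF. The checkpoint genes BUB3 (-0.14 ± 0.18 SE, adjusted p = 0.58) and MAD2L1 (-0.29 ± 0.16 SE, adjusted p = 0.19) did not pass. ECT2 rose on average in introns (0.45 ± 0.16 SE, adjusted p = 0.047) and stood at 0.54 ± 0.17 in exons, which was not called. Its intron CPM went from 35.7 and 40.7 to 72.6 and 52.6 in siControl. In siPFDN2 it went from 49.0 and 24.1 to 60.6 and 56.5, where 24.1 belongs to the library that stands apart. In siPFDN5 the times overlapped, at 47.9 and 44.2 before serum and 44.9 and 45.3 after it. ANLN, the contractile ring scaffold, did not pass (-0.40 ± 0.15 SE, adjusted p = 0.058).

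The intron share, the percentage of a gene's own gene-body count that lies outside its exons, needs no scaling between libraries. For 31 of 46 mitotic genes all 6 libraries before serum were above all 6 after serum, beside 4.16% of all 17390 genes tested. The median share over the mitotic genes lay between 5.08% and 6.24% in the 6 libraries before serum and between 2.14% and 3.48% after it. Over all counts of a library the share moved otherwise, from 15.0% and 17.3% to 20.6% and 16.2% in siControl, from 16.2% and 16.1% to 20.9% and 19.3% in siPFDN2, and from 22.8% and 25.9% to 17.2% and 14.8% in siPFDN5. In siPFDN5 both libraries after serum were below both before it, in siPFDN2 both were above, and in siControl the times overlapped. In 1 model of exon and intron counts with a term per library, the intron count fell relative to the exon count in 42 of 46 mitotic genes on average (median -1.02, beside -0.28 and 22.1% of all genes). In siControl 5 fell (median -0.70, all genes 0.12, 0.293%), in siPFDN2 7 (-0.99, -0.21, 0.351%) and in siPFDN5 43 (-1.52, -0.82, 43.9%). Without siPFDN2 replicate 2 before serum, 0 fell in siPFDN2 and 41 on average (all genes 0.0392% and 13.7%).

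For CCNB1, the lowest library before serum (siPFDN5 replicate 2) was at 2.56% (95% Wilson interval 2.24 to 2.94) and the highest after serum (siControl replicate 1) at 1.47% (1.24 to 1.75). For TOP2A, the lowest library before serum (siControl replicate 2) was at 2.49% (95% Wilson interval 2.26 to 2.73) and the highest after serum (siControl replicate 2) at 1.11% (0.963 to 1.29). For CENPE, the lowest library before serum (siControl replicate 2) was at 10.4% (95% Wilson interval 9.51 to 11.3) and the highest after serum (siControl replicate 1) at 5.72% (4.95 to 6.59). The intervals before and after serum were separate in these genes even at their closest libraries. For AURKA, the lowest library before serum (siPFDN2 replicate 1) was at 4.03% (95% Wilson interval 3.54 to 4.57) and the highest after serum (siControl replicate 1) at 3.64% (2.95 to 4.49). For CDC20, whose introns are short, the lowest library before serum (siControl replicate 1) was at 0.461% (95% Wilson interval 0.345 to 0.617) and the highest after serum (siControl replicate 1) at 0.412% (0.285 to 0.595). These 2 genes kept their order in all libraries but with overlapping intervals at the closest pair. For ECT2, the lowest library before serum (siControl replicate 1) was at 5.80% (95% Wilson interval 5.38 to 6.26) and the highest after serum (siControl replicate 1) at 12.4% (11.8 to 12.992), so that the times overlapped. Intervals cover counting error within 1 library only and leave out the spread between samples. The fragments carried no molecular identifiers, so repeated copies of a fragment count as separate and the intervals may be too narrow.

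**Figure D5:**
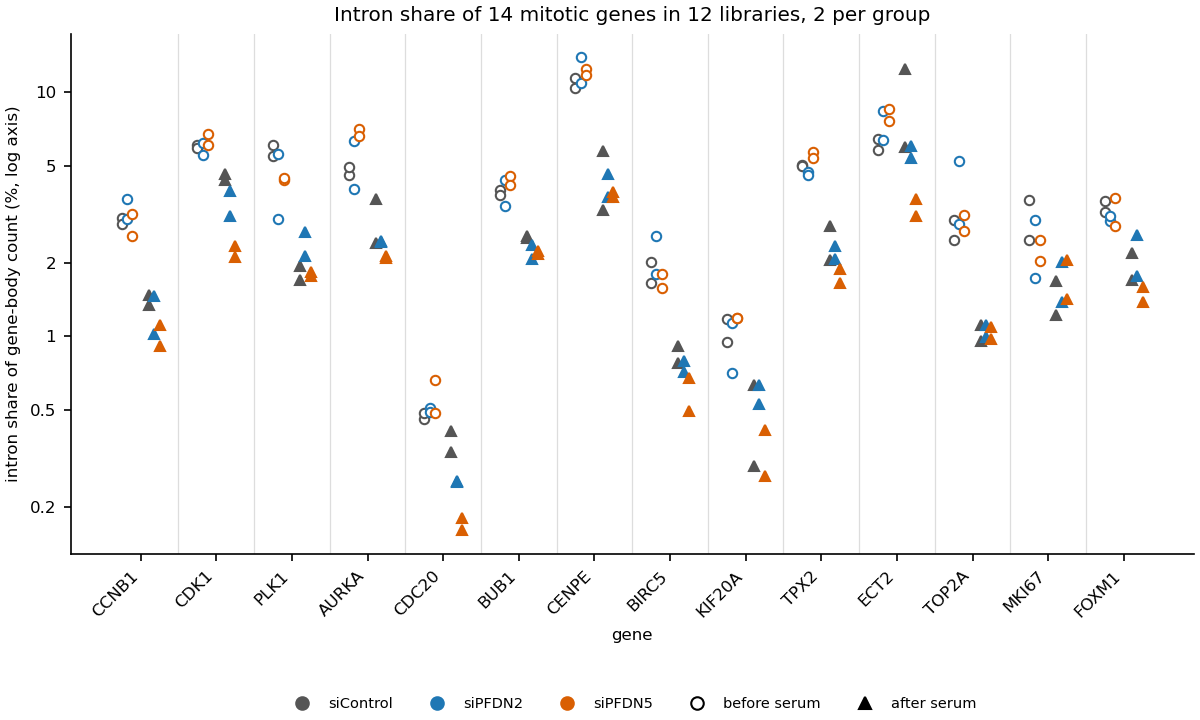
Intron share of the gene-body count (percent, log axis) of 14 mitotic genes in each of the 12 libraries, open circles before serum and filled triangles after serum, coloured by siRNA. Apart from ECT2 and MKI67, each gene has all 6 libraries before serum above all 6 after it.

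Whether the serum response differed between siRNAs was tested as the difference of the responses, with the same siControl libraries in both tests. In gene-body counts edgeR called no mitotic gene and 0% of all genes for siPFDN2 minus siControl, and none and 0% for siPFDN5 minus siControl. At an unadjusted p under 0.05 there were 4 and 11 mitotic genes (all genes 6.60% and 20.9%), and DESeq2 called 0 and 3 (all genes 0.00716% and 6.59%). Removal of a GC trend gave calls for siPFDN5 minus siControl, counted in the closing section. For siPFDN5 the difference is not that of a like knockdown at both times, since PFDN5 was lowered before serum and near its siControl level after it. The medians were 0.25 and 0.24, beside -0.10 and -0.033 over all genes. PLK1 (-1.31 ± 0.39 SE, adjusted p = 0.58), INCENP (-0.73 ± 0.27 SE, adjusted p = 0.58) and CDC25B (-0.92 ± 0.35 SE, adjusted p = 0.58) had the smallest p-values in siPFDN2, and BIRC5 (0.79 ± 0.19 SE, adjusted p = 0.096), MKI67 (-1.06 ± 0.28 SE, adjusted p = 0.096) and AURKB (0.73 ± 0.22 SE, adjusted p = 0.11) in siPFDN5. Without siPFDN2 replicate 2 before serum, 21 genes rose more in siPFDN5 than in siControl and 2 fell more, MKI67 and ASPM, beside 12.2% of all genes called higher and 9.58% lower, while siPFDN2 still gave 0 calls (all genes 0%) and its median went to 0.030.

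In intron counts the difference for siPFDN5 was positive in 38 of 46 mitotic genes (median 0.34, all genes -0.024), that is, above the change in siControl. It passed for 2 genes, AURKB and KIF2C, beside 3.59% of all genes called higher. AURKB (ENSG00000178999, chr17:8204733-8210600, minus strand) had 171 and 131 intron fragments in siControl, 158 and 203 in siPFDN2 and 65 and 62 in siPFDN5 before serum, and 74 and 131, 60 and 86, and 62 and 64 after serum. Its scaled intron level changed by -0.81 ± 0.26 on the log2 scale in siControl and by 0.41 ± 0.28 in siPFDN5, a difference of 1.22 ± 0.39 SE, adjusted p = 0.048. KIF2C (ENSG00000142945, chr1:44739818-44767767, plus strand) had 482 and 514 intron fragments in siControl, 494 and 778 in siPFDN2 and 269 and 244 in siPFDN5 before serum, and 230 and 368, 187 and 237, and 175 and 215 after serum, with a change of -0.97 ± 0.21 in siControl and 0.021 ± 0.22 in siPFDN5, a difference of 0.99 ± 0.31 SE, adjusted p = 0.044. Both calls were lost when any of 9 single libraries was left out, siControl and siPFDN5 libraries before serum among them, with the replicate number as a block and with library size alone, while DESeq2 called 4 (all genes 20.7%). At an unadjusted p under 0.05 there were 10 genes (all genes 32.5%). For siPFDN2 minus siControl no gene passed by edgeR (0 at an unadjusted p under 0.05, all genes 4.19%, and 0 by DESeq2, all genes 0%). Before serum, siPFDN5 against siPFDN2 gave 1 higher (NUF2) and 6 lower intron counts (PLK1, AURKB, KIF2C, BIRC5, UBE2C and FOXM1), beside 9.68% and 6.33% of all genes, and 0 without siPFDN2 replicate 2.

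Other genes of the cell division pathway were taken from 7 further lists, to be read against the 15.1% lower and 14.2% higher of all genes in introns and 7.31% and 7.60% in gene bodies. In intron counts, averaged over the siRNAs, centrosome and other spindle genes had the lowest median of these lists, with 13 of 24 lower, 1 higher and a median of -0.51. Other kinetochore and centromere genes had 6 of 29 lower and 3 higher (median -0.062). APC/C subunits had 3 of 15 lower and 1 higher (-0.24), cohesin and separase genes 2 of 14 and 1 (-0.20), and condensin genes 2 of 8 and 1 (-0.10). DREAM, MuvB and E2F genes had 6 of 19 lower and 3 higher (-0.15). DNA replication genes, which peak earlier in the cycle, had 3 of 38 lower, 3 higher and a median of 0.048. In exon counts 8 of them rose and 0 fell, beside 5.85% and 5.11% of all genes. In gene-body counts DNA replication genes had 8 higher, centrosome and other spindle genes 2 higher and 4 lower, and the other 5 lists no more than 3 higher and 1 lower each. Differences between the mitotic genes and these lists were not tested.

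Set beside the promoter letters, the fall was found with and without a CHR. Of the 22 genes with a CHR before a start, the intron counts of 16 fell (median -0.80, from -1.57 in TOP2A to 0.45 in ECT2). Of the 17 with a promoter sequence but no CHR in it, 12 fell (median -0.61). Of the 7 with no sequence, 6 fell. All 5 genes whose promoters are printed above had negative intron changes, from -0.88 ± 0.12 in KIF11 to -0.52 ± 0.19 in CDK1, which did not pass.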

How the data were processed

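Total RNA of 12 HCT116 libraries was depleted of 18S rRNA, per the labels' protocols. The authors deposited raw fragment counts, 1 table over gene bodies with their introns and 1 over exons, made with featureCounts 1.5.2 on Ensembl release 87 (GRCh38) with no strand option and with fragments in overlapping genes counted for each, per the file headers. Transcript tables named TPM hold estimated counts, as deposited, and served only as an alternative after rounding. The submitters' processing notes also name HISAT2 0.12.2 and kallisto 0.43. Of the sample columns of each count file, 6 could not be tied to a sample here and were not used. The 12 libraries hold 59784425 to 136504590 gene-body counts.

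All genes past filterByExpr were fitted with edgeR 4.0.16 (glmQLFit and glmQLFTest, two-sided, TMM scaling, 6 group means, no block, Benjamini-Hochberg adjustment over all genes tested, threshold 0.05), in 12 comparisons. DESeq2 1.42.0, other scalings, no filter, removal of a GC trend, a replicate block and leaving out each library were alternatives. Log2 CPM used a prior count of 2. Intron counts are gene-body minus exon counts. The share model, the runs of these alternatives on intron counts and the count of shares without overlap were added after seeing the data. Coordinates and overlaps are from GENCODE 29 (GRCh38). The code was tested on simulated data. All 46 members could be named. For each comparison the text names the members called, up to 5 a direction, or else the 3 with the smallest p. The members and lists were chosen with earlier results of these data known. Intervals for shares are 95% Wilson intervals.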

Additional observations from a re-analysis of the deposited data

Results flagged for a closer look

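AURKB and KIF2C were flagged because their serum responses in intron counts differed between siPFDN5 and siControl. The difference in log2 fold change was 1.22 for AURKB and 0.99 for KIF2C (edgeR's quasi-likelihood test, adjusted p = 0.048 and 0.044, 2 libraries in each of the 4 groups). In this comparison 3.59% of all genes were called higher, so 2 calls are no result about mitotic genes in particular. Both calls were lost with the replicate number as a block, with library size alone, and when any of several single libraries was left out. In siPFDN5 before serum both genes had fewer intron fragments, also as CPM, than in any other library before serum. Groups of 2 libraries are too small for a check of single libraries that lie far from their group.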

How the results depend on the processing

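The intron calls of the averaged serum response, 36 in either direction (34 lower), were 34 to 40 when each library was left out in turn, and no alternative run moved them by over 1.5 times. Replicate numbers did not pair the libraries (correlations of deviations between groups from -0.32 to 0.59, not all above 0.1). With the replicate block the gene-body calls in the serum response of siPFDN2 went from 3 to 1 and the intron calls in the difference for siPFDN5 from 2 to 0, and no other count moved by over 1.5 times. With the block and the GC trend removed, counts were 7 for siPFDN5 against siControl after serum, 5 for siPFDN5 against siPFDN2 before serum, and 2, 5, 14 and 14 for serum in siControl, in siPFDN2, in siPFDN5 and averaged. With the GC trend removed alone, these 6 were 16, 9, 4, 5, 15 and 15, and the difference for siPFDN5 had 10 (4 in introns). The share of all genes called was not set beside the counts of alternative runs in this section. They describe how far the calls moved with the processing and are no result about mitotic genes in particular. Without the filter, siPFDN2 and siPFDN5 against siControl had 4 before and 4 after serum, siPFDN5 against siPFDN2 before serum 11, serum in siPFDN2 and averaged 8 each, the differences 2 each, and intron counts 4 in the difference for siPFDN5. DESeq2 called 2 for siPFDN2 before serum, 3 for siPFDN5 after serum, 12 for siPFDN5 against siPFDN2 before serum, 6 for serum in siPFDN2, and 3 (4 in introns) for the difference for siPFDN5. Library size alone gave 8 for serum in siPFDN2 (41 in introns), 11 for averaged serum, and 0 for the intron difference for siPFDN5. Exon counts gave 0, 0 and 2 for serum in siControl, in siPFDN2 and averaged, and transcript estimates gave 0 in each siRNA and averaged. There SPC24 turned to -0.22 in siControl, -0.27 in siPFDN2 and -0.090 on average.

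Leaving out 1 library gave 0 to 34 calls for siPFDN2 and 0 to 1 for siPFDN5 against siControl before serum, 0 to 8 and 0 to 26 after serum, 0 to 36 for siPFDN5 against siPFDN2 before serum, 1 to 12, 1 to 34, 1 to 22 and 1 to 25 for serum in siControl, siPFDN2, siPFDN5 and averaged, and 0 to 32 and 0 to 23 for the differences. In intron counts it gave 13 to 37, 9 to 27 and 5 to 25 for serum in the 3 siRNAs and 0 to 3 and 0 to 12 for the differences. The highest gene-body counts came without either siPFDN2 library before serum, which by construction takes that group's spread out of the shared error. The cause of the other shifts was not tested. These ranges, too, are given without the share of all genes called in each run, so they describe only the dependence on single libraries. A lone library left in a group is assumed to vary like the others. Low intron counts limit the precision for single genes, as in KIF20A (11 to 93 fragments per library), CDC20 (13 to 78) and PTTG1 (24 to 158).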
